A study of Mus musculus with 8 samples.

Results

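The genes described here encode 10 mouse C-type lectin receptors and were examined in cultured microglia. Cd209b, Cd209f and Cd209g are of the Cd209 family, and Clec4a1, Clec4a2, Clec4a3, Clec4b1, Clec4d, Clec4e and Clec4n are of the Clec4 family. They are 10 of the 55385 genes in the count table, found by symbol, and they were chosen with their difference between IgG and control libraries in view. That difference is therefore given as a description, with no p-value for any member, and counts of members past a threshold are evidence of nothing beyond the choice. The libraries came from primary cultured microglia of wild-type mouse neocortex and hippocampus, with 4 control cultures and 4 cultures that received 10 µg/ml IgG for 24 h at DIV15 (day in vitro). The labels call the control cultures untreated, and the study's methods describe PBS as their treatment. Cells of several newborn brains were pooled in each culture, and the control and IgG culture of one replicate number carry one date in the labels, which makes 4 pairs.

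C-type lectin receptors are cell-surface proteins of macrophages, dendritic cells and microglia that bind carbohydrate or glycolipid ligands. Members that pair with the adaptor FcRγ, the product of Fcer1g, which also serves activating IgG receptors, signal through the kinase Syk and the adaptor Card9. The receptor DCIR, encoded by Clec4a2, carries an inhibitory motif in its cytoplasmic tail that recruits phosphatases such as the product of Ptpn6. Cd209b encodes a receptor of splenic marginal zone macrophages that has been described as a receptor for sialylated IgG.

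Library totals ran from 21287816 to 23703216 counts, and expression levels are CPM, that is, counts relative to the library size after TMM scaling, with the SD over the 4 libraries of a group. In IgG replicates 1 and 3 the mitochondrial genes held 4.85% and 5.59% of all counts, against 1.97% to 2.41% elsewhere, so each tested member is also given for pairs 2 and 4 alone. The microglial genes Csf1r and Cx3cr1 had control means of 1189 and 442 CPM, whereas P2ry12 and Tmem119 had 6.98 and 5.09 CPM and Siglech had 0.168 CPM. Of the markers of border-associated macrophages, Stab1, Siglec1 and Ms4a7 had control means of 759, 305 and 201 CPM, and Lyve1 and Cd163 had 0.0669 and 0.0761 CPM. Transcripts of oligodendrocytes were present, with 742 CPM of Mbp in the control libraries.

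Among the Clec4 genes, Clec4a1, Clec4a2 and Clec4a3, which encode receptors of the DCIR group, were higher in the IgG library of every pair. Clec4a1 (ENSMUSG00000049037, GRCm38 chr6:122921848-122934619, plus strand), which encodes DCIR4, measured 40.9, 34.1, 30.2 and 19.8 CPM in control replicates 1 to 4. In IgG replicates 1 to 4 it measured 129, 73.1, 109 and 39.1 CPM. The lowest IgG library, replicate 4, lay below the control library of replicate 1, so the groups overlapped, although each IgG library was above its own control.

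The change of Clec4a1 within the pairs was 1.65, 1.10, 1.85 and 0.98 on the log2 scale, with a mean of 1.39 ± 0.42 (SD, n = 4 pairs). The mean level was 31.2 ± 8.80 CPM in the control and 87.4 ± 39.6 CPM in the IgG libraries, a ratio of 2.80, and the fitted log2 fold change with the pairs as a block was 1.40 (SE 0.16). Pairs 1 and 3, whose IgG libraries had the high mitochondrial share, had the larger changes, and the mean over pairs 2 and 4 was 1.04. The part of the mitochondrial share in the change was not tested.

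Clec4a2 (ENSMUSG00000030148, chr6:123106428-123143999, plus strand), which encodes the inhibitory receptor DCIR, measured 42.6, 38.8, 33.8 and 20.8 CPM in control replicates 1 to 4. It measured 99.6, 72.8, 81.4 and 40.6 CPM in the IgG libraries. IgG replicate 4 was again the lowest of its group and lay within the control range. The changes within pairs were close to each other, at 1.23, 0.91, 1.27 and 0.96, with a mean of 1.09 ± 0.18, and the mean over pairs 2 and 4 was 0.93.

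Clec4a3 (ENSMUSG00000043832, chr6:122952515-122969875, plus strand), which encodes DCIR3, measured 36.6, 34.5, 28.6 and 19.2 CPM in the control libraries. The IgG libraries held 74.2, 52.8, 62.5 and 30.8 CPM. The order of the replicates was that of Clec4a2 in both groups, and the mean change within pairs was 0.86 ± 0.25, or 0.64 over pairs 2 and 4.

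Clec4b1 (ENSMUSG00000030147, chr6:123049962-123071555, plus strand) encodes DCAR, an FcRγ-coupled receptor for mycobacterial glycolipids. It was expressed at a lower level, with 3.03, 2.57, 2.18 and 2.24 CPM in the control libraries and 4.72, 5.22, 4.12 and 3.69 CPM in the IgG libraries. The lowest IgG library, at 3.69 CPM, lay above the highest control library. The changes within pairs were 0.62, 1.00, 0.89 and 0.70, with a mean of 0.80 ± 0.17, and did not follow the order seen for Clec4a1, being 0.85 over pairs 2 and 4.

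**Figure D1:**
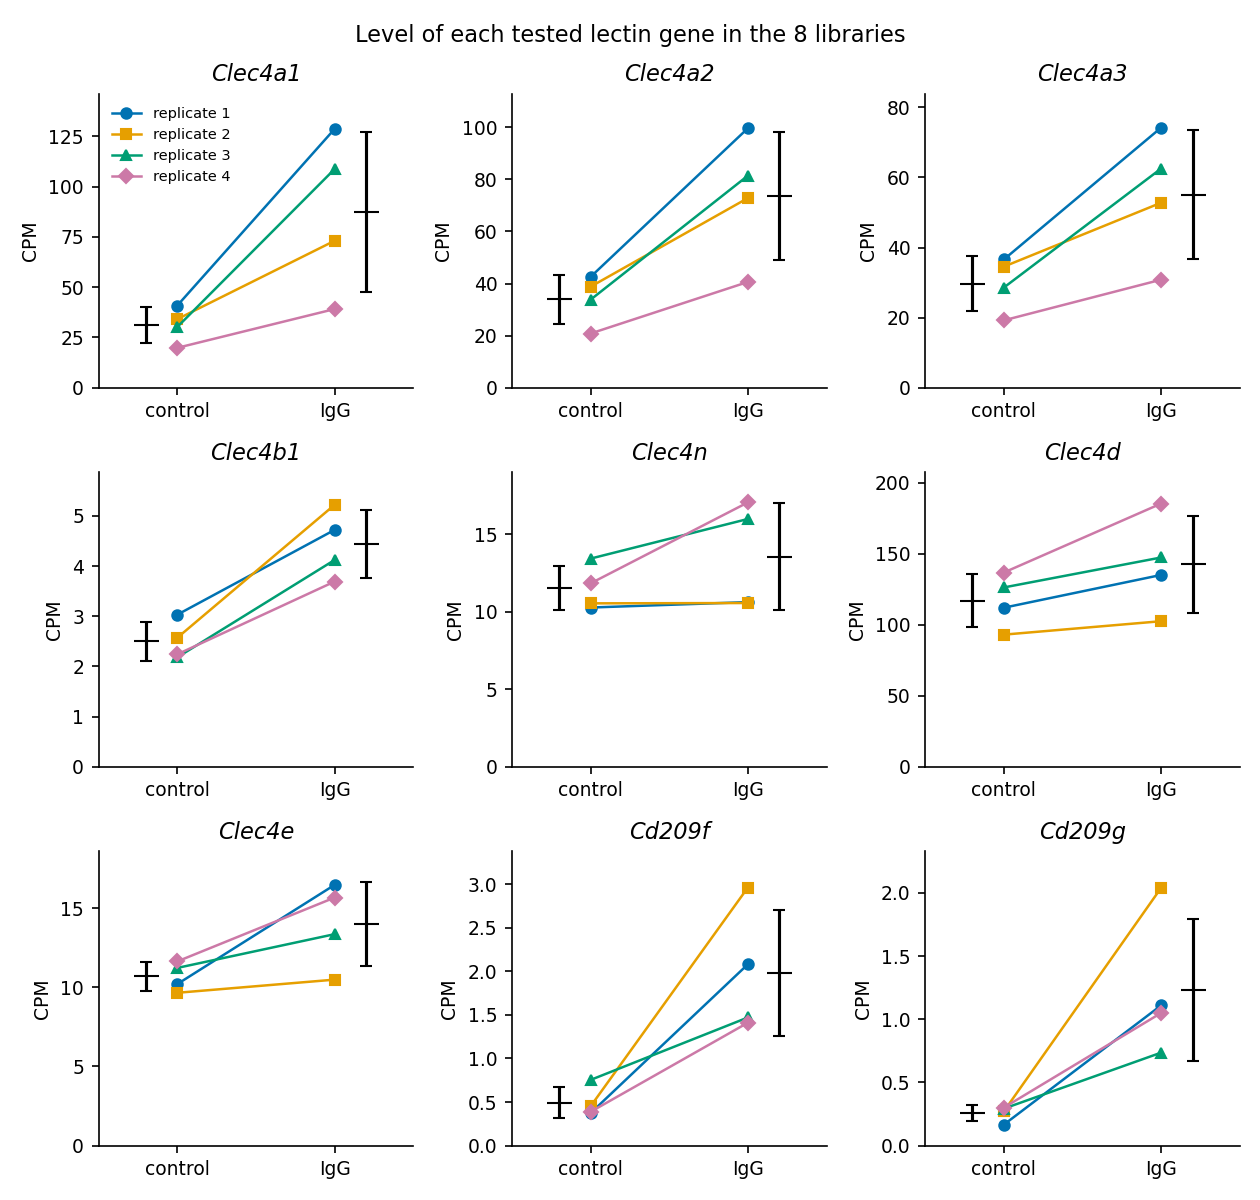
CPM (linear axes from 0) of the 9 tested members in the control and IgG libraries, with a line joining the 2 libraries of a replicate and black bars for the mean ± SD of each group (n = 4). Clec4a1, Clec4a2 and Clec4a3 had replicate 4 lowest in both groups, whereas Clec4d had it highest, and Clec4b1, Cd209f and Cd209g had no overlap between the groups.

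The activating receptors at the other end of the gene cluster differed less between the groups. Clec4d (ENSMUSG00000030144, chr6:123262111-123275265, plus strand), which encodes MCL, a glycolipid receptor that pairs with Mincle, was the most abundant member. It measured 112, 92.9, 126 and 137 CPM in the control libraries and 135, 102, 147 and 185 CPM in the IgG libraries. The groups overlapped widely, and the changes within pairs were 0.27, 0.14, 0.22 and 0.44, with a mean of 0.27 ± 0.13, or 0.29 over pairs 2 and 4.

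Clec4e (ENSMUSG00000030142, chr6:123281789-123289870, minus strand) encodes Mincle, which binds mycobacterial trehalose glycolipids and a factor released from dead cells. It measured 10.2, 9.65, 11.2 and 11.6 CPM in the control libraries and 16.5, 10.5, 13.4 and 15.7 CPM in the IgG libraries. Only IgG replicate 2 fell within the control range, and the mean change within pairs was 0.37 ± 0.25, or 0.27 over pairs 2 and 4. Clec4n (ENSMUSG00000023349, chr6:123229843-123247021, plus strand), which encodes the fungal mannan receptor dectin-2, measured 10.3, 10.6, 13.4 and 11.8 CPM in the control libraries and 10.6, 10.6, 16.0 and 17.1 CPM in the IgG libraries. Replicates 1 and 2 showed almost the same level in both groups, with changes of 0.05 and 0.00, and the mean of 0.21 ± 0.24 was smaller than its SD, with 0.26 over pairs 2 and 4. With libraries scaled by total counts or by DESeq2 size factors, Clec4n was no longer higher with IgG in all 4 pairs.

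**Figure D2:**
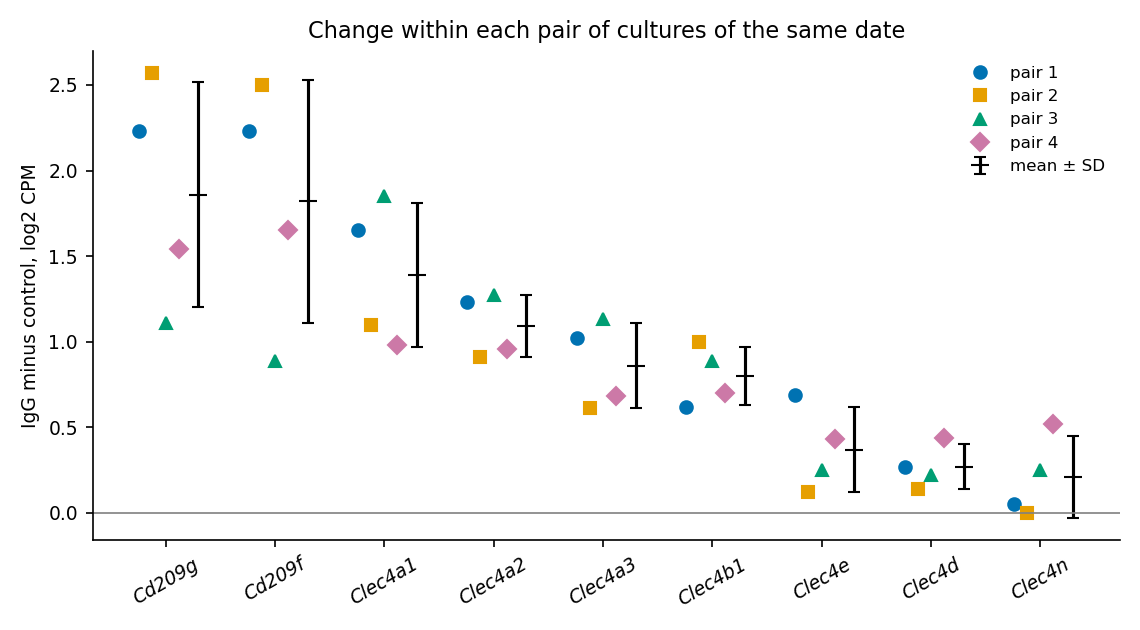
Change within each pair (IgG minus control, log2 CPM with a prior count of 2) for the 9 tested members, ordered by their mean, with black bars for the mean ± SD over 4 pairs. The means ran from 0.21 for Clec4n to 1.86 for Cd209g, and pairs 1 and 3 were the upper ones for Clec4a1, Clec4a2 and Clec4a3 but not for Cd209f and Cd209g.

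The 2 Cd209 genes that could be measured were low in every control library and higher in every IgG library. Cd209f (ENSMUSG00000051906, chr8:4102787-4105835, minus strand), also called SIGNR8, is a mouse relative of the dendritic cell lectin DC-SIGN. It had 9, 10, 18 and 9 counts in control replicates 1 to 4, which were 0.373, 0.451, 0.754 and 0.388 CPM. It had 45, 68, 30 and 31 counts in IgG replicates 1 to 4, which were 2.08, 2.96, 1.47 and 1.41 CPM. The groups did not overlap, and the mean change within pairs was 1.82 ± 0.71, with 0.89 in pair 3 and 2.50 in pair 2.

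Cd209g (ENSMUSG00000079168, chr8:4134098-4137707, plus strand), also called SIGNR7, had 4, 6, 7 and 7 counts in the control libraries, or 0.166, 0.271, 0.293 and 0.301 CPM. The IgG libraries had 24, 47, 15 and 23 counts, or 1.11, 2.04, 0.736 and 1.05 CPM. Pair 2 changed most and pair 3 least, as for Cd209f, and the mean was 1.86 ± 0.66. Over pairs 2 and 4, without the IgG libraries of high mitochondrial share, the mean changes were 2.08 for Cd209f and 2.06 for Cd209g. These values rest on few molecules, and neither gene had enough counts to be tested when at least 10 counts were required in every library.

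Cd209b (ENSMUSG00000065987, chr8:3917655-3926844, minus strand) had 0 counts in all 8 libraries. The limit that 0 counts allow, 3 counts, corresponds to 0.124 to 0.147 CPM at the depth of these libraries. The gene was not detectable at this depth in either group, and no fold change was computed.

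Cd209f and Cd209g lie 34.9 kb apart from outer end to outer end, and their promoters share a long stretch, which is shown because both genes differed alike between the groups. Sequences are from RefSeq (GRCm38.p6), read 5′ to 3′ on the strand of the gene, from 250 bases before the RefSeq start up to the first exon of any protein-coding GENCODE transcript. The Cd209g stretch lies inside the annotated gene span, in the single exon of a transcript with retained introns that codes for no protein. The Cd209f stretch is chr8:4105836-4106014 on the minus strand and that of Cd209g is chr8:4134486-4134651 on the plus strand. Capitals mark the longest run that is identical in both stretches, 83 bases.
Cd209f: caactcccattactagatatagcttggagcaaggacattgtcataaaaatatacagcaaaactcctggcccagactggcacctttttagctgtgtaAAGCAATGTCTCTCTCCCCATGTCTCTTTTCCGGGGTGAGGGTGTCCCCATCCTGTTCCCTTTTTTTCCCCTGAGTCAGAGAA
Cd209g: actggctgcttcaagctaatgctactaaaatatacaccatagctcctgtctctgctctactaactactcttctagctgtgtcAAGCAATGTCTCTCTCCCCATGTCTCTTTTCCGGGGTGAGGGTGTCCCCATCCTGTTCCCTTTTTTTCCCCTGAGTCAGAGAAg

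Over the whole RefSeq window of 300 bases (250 before and 50 after the start), the Cd209f and Cd209g promoters were identical at 260 of 320 aligned positions (81.2%). The other 35 of the 36 pairs among the 9 members with a promoter in the table reached at most 52.8%. The longest identical run of Cd209f and Cd209g in this window was 180 bases, longer than the printed stretches show, against at most 12 in the other pairs. The letters TGANTCA, the core of an AP-1 site searched on both strands, were found in the shared capitals of both genes and, after the start, in Clec4a2, and 7.81% of all 32851 promoters of the same length hold a match. The transcripts are related too, since 646 of the 2168 windows of 50 bases in Cd209f transcripts (29.8%) also occur in Cd209g, where they are 16.6% of 3890. How reads that fit both genes were counted is not given in the sources used here, so the separate levels of the pair are uncertain.

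Of the Clec4 members, Clec4a2 shares 198 of 2959 such windows (6.69%) with other genes, mainly Clec4a4, and Clec4b1 shares 68 of 783 (8.68%) with Clec4a2. Clec4n shares 11 of 1603, and Clec4a1, Clec4a3, Clec4d and Clec4e share none.

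The study concerns the type I interferon response of microglia to IgG, and promoters were therefore searched for the letters of elements bound by interferon-regulated factors. The interferon-stimulated response element was searched as GAAANNGAAA, the gamma-activated site as TTCNNNGAA and the composite element of ETS and IRF factors as GGAANNGAAA, on both strands. They occur in 3.44%, 8.30% and 2.72% of all promoters. The first was found in Clec4b1 and Clec4d, the second in Clec4a2 (TTCAAAGAA, 42 bases before the start) and the third in Clec4a1. No matches of these members overlapped. None of the elements was found in Clec4a3, Clec4e, Cd209b, Cd209f or Cd209g, and Clec4n had no promoter to search. The part of the matches in the differences between the groups was not tested. The sequences of Clec4a1 (chr6:122921598-122921847) and Clec4b1 (chr6:123049712-123049961), both on the plus strand, show where the match, in capitals and read from the other strand, stands in 2 genes of the end of the cluster with the larger differences.
Clec4a1: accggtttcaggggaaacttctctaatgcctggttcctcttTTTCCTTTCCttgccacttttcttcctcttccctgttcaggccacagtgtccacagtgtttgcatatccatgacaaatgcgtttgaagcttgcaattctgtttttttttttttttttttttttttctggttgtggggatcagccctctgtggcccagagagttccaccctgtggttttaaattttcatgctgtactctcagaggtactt
Clec4b1: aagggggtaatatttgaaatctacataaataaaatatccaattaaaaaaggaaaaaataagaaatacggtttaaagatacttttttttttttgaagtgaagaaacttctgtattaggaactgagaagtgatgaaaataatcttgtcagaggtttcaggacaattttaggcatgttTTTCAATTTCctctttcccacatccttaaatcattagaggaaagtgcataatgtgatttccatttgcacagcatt

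The 7 Clec4 members lie in a cluster of 368.0 kb on chromosome 6. In order along it, Clec4a1, Clec4a3, Clec4b1 and Clec4a2 had fitted log2 fold changes of 1.40 (SE 0.16), 0.86 (SE 0.12), 0.82 (SE 0.16) and 1.09 (SE 0.10). A stretch of 85.8 kb without a member follows, which holds Clec4b2 and other genes with at most 5 counts each over all libraries. After it come Clec4n, Clec4d and Clec4e, with 0.21 (SE 0.13), 0.27 (SE 0.09) and 0.37 (SE 0.13). Thus among the Clec4 members the 4 larger values lay at one end of the cluster, where the non-member Clec4a4 had 1.32 (SE 0.33). The gene before the cluster, Necap1, an endocytosis adaptor, had a log2 fold change of 0.23 (SE 0.10), with an adjusted p of 0.478 in the quasi-likelihood test of edgeR with the pairs as a block. On chromosome 8, the pseudogene Gm16589 beside Cd209f had 0.42 (SE 0.30), with an adjusted p of 0.631 in the same edgeR test. Beyond Cd209g, the antisense gene 4932443L11Rik had -0.21 (SE 0.15) and was higher with IgG in 0 of 4 pairs, with an adjusted p of 0.627 in the same edgeR test. After it, Evi5l had -0.10 (SE 0.10), with an adjusted p of 0.704 in the same edgeR test.

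**Figure D3:**
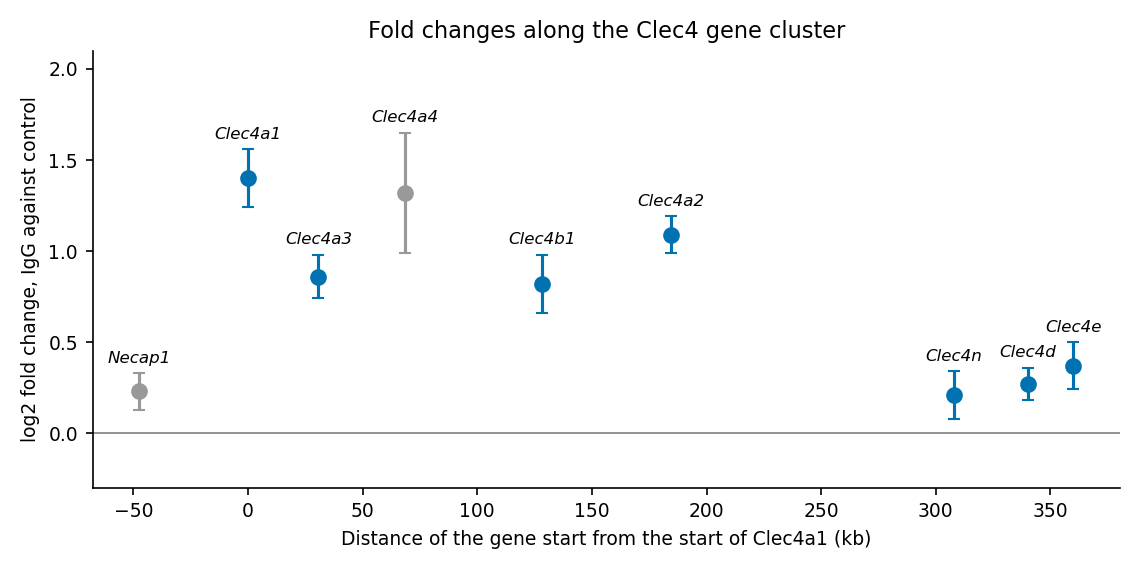
Fitted log2 fold change (IgG against control, with the pairs as a block) against the distance of each tested gene's start from that of Clec4a1 in kb. Bars are the SE, blue points are members and grey points are other genes, and the values lay at 0.82 or above from Clec4a1 to Clec4a2 and at 0.37 or below from Clec4n to Clec4e.

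Across all members, 9 of 10 had enough counts to be tested, and all 9 were higher with IgG in all 4 pairs, as were 10.4% of the 17537 genes tested. The lowest IgG library was above the highest control library for 3 of the 9 (Clec4b1, Cd209f and Cd209g), and for 2.6% of all genes. The median log2 fold change of the 9 was 0.86, beside -0.0051 over all genes tested. With the pairs as a block, 3 of the 9 (Clec4a1, Clec4a2 and Clec4a3) were among the genes called higher at an adjusted p under 0.05, which were 0.393% of all genes. By the study's criterion of an unadjusted p under 0.01 with a log2 fold change above 0.5, 6 of the 9 were called higher, beside 1.48% of all genes. Because the members were selected on this contrast, these counts describe the selection. Without the block, 0 of 17537 genes were called by edgeR's test after adjustment, although 1230 had an unadjusted p under 0.05 (DESeq2 with the block called 231).

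To compare levels between genes, CPM was divided by the exon length of each gene in kb. In the control libraries Clec4d came first with 73.1 ± 11.8 CPM per kb, followed by Clec4a3 with 22.4 ± 5.87, Clec4a1 with 20.1 ± 5.65, Clec4a2 with 11.6 ± 3.24 and Clec4n with 8.12 ± 1.02. Clec4a3, Clec4a1 and Clec4a2 each overlapped the next in this order, whereas Clec4d did not. Clec4b1 had 3.19 ± 0.497, Clec4e 2.15 ± 0.183, Cd209f 0.247 ± 0.0896 and Cd209g 0.0714 ± 0.0173 CPM per kb, without overlap between neighbours. In the IgG libraries Clec4d had 89.1 ± 21.4, Clec4a1 56.1 ± 25.4 and Clec4a3 41.5 ± 13.9 CPM per kb, and each overlapped the next. The exon length of Clec4e, 4965 bases, joins all its annotated transcripts, and its level per kb is a low estimate where the longest of these were not expressed. The same holds for Cd209g, whose 3610 bases take in its whole gene span because of a transcript with retained introns. Before this division its CPM was also below that of Cd209f in every library (means of 0.258 against 0.491 in the control and 1.23 against 1.98 in the IgG libraries). Its place with another length was not computed.

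A ratio of 2 genes within a library does not depend on how libraries were scaled. Clec4a1 had 0.365, 0.367, 0.239 and 0.145 times the counts of Clec4d in the control libraries and 0.953, 0.713, 0.738 and 0.211 times in the IgG libraries. The ratio with IgG was 2.61, 1.94, 3.09 and 1.46 times that of its control in pairs 1 to 4. Clec4a1 also moved against its neighbour Clec4a3, with a ratio in the IgG libraries that was 1.55, 1.40, 1.64 and 1.23 times that of their controls, and the ratios of the 2 groups did not overlap. The share of the 3 DCIR genes in the summed CPM per kb of the Clec4 members was 45.1%, 46.4%, 36.0% and 25.7% in the control libraries and 63.0%, 58.2%, 56.5% and 31.4% in the IgG libraries. The share was higher with IgG in each pair, and IgG replicate 4 remained below control replicates 1, 2 and 3.

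**Figure D4:**
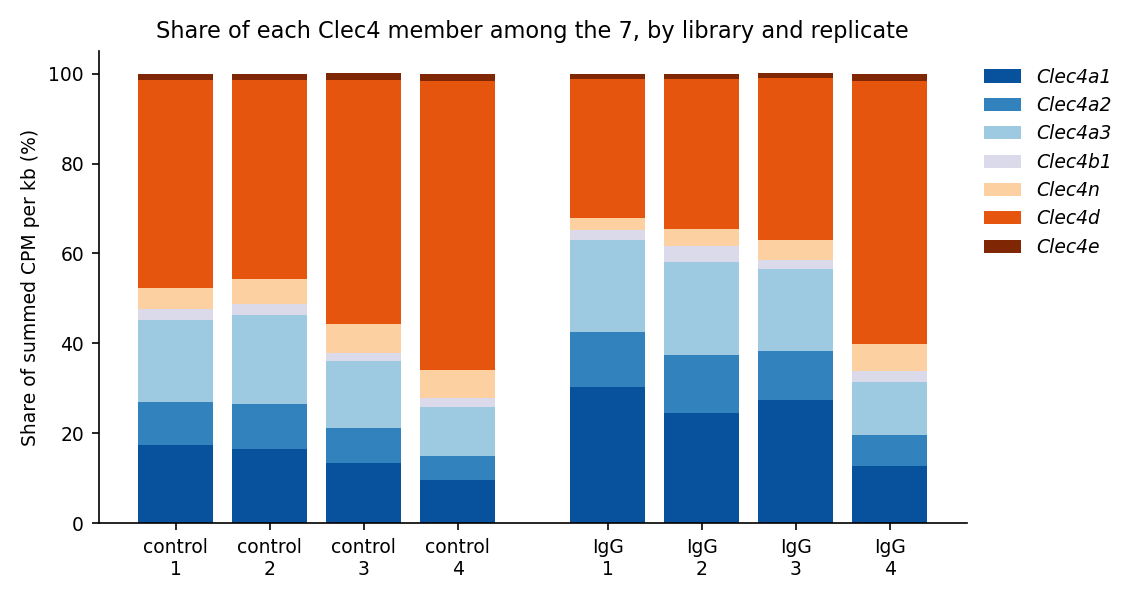
Share (%) of each Clec4 member in the summed CPM per kb of the 7, 1 bar per library with its group and replicate number. Clec4d took 44.1% to 64.1% in the control libraries and 30.8% to 58.5% in the IgG libraries, and replicate 4 had the highest share of Clec4d in both groups.

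The differences between the dates in the labels were not used to choose the members and were tested over all genes, with the IgG effect in the model. Clec4a2 differed between dates (adjusted p = 0.0329, quasi-likelihood test of edgeR, Benjamini-Hochberg method), and replicate 1 was highest and replicate 4 lowest in both groups. It was the only one of 9 tested members called in this test, beside 0.975% of all genes, and 5 of the 9 had an unadjusted p under 0.05, beside 9.81% of all genes. Clec4a3 and Clec4a1, with the same replicates at the extremes, had adjusted p-values of 0.0794 and 0.101 in that edgeR test. Clec4d had 0.156, with replicate 4 highest and replicate 2 lowest in both groups. Clec4n, Clec4e, Cd209g, Clec4b1 and Cd209f had adjusted p-values of 0.483, 0.683, 0.726, 0.726 and 0.793 in the same test. Clec4a2 was no longer called without replicate 1, 2 or 4 (adjusted p = 0.0721, 0.108 and 0.487 in the same test). Clec4a1 and Clec4a3 were called without replicate 3 (0.0225 and 0.0335). Omission of a replicate also leaves fewer libraries, so these fits do not show which cultures a call rested on. Clec4a1, Clec4a3 and Clec4d were also called by edgeR's likelihood ratio test (adjusted p = 1.77e-05, 1.54e-05 and 0.00531) and by the quasi-likelihood test without a filter on low counts (9.99e-06, 0.000246 and 0.0271).

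Of the 8 other members of the Cd209 and Clec4 families that were listed, only Clec4a4 was tested. It encodes DCIR2, a receptor with the inhibitory motif best known from dendritic cells, and lies between Clec4a3 and Clec4b1. It measured 0.83, 0.406, 0.754 and 0.0431 CPM in the control libraries and 1.85, 1.00, 1.57 and 0.410 CPM in the IgG libraries. Its log2 fold change was 1.32 (SE 0.33), higher in 4 of 4 pairs, with an adjusted p of 0.240 in edgeR's test, so that it was not called, whereas edgeR's likelihood ratio test called it and DESeq2 did not. It met the study's criterion (unadjusted p = 0.00408 in edgeR's test), as did 1.48% of all genes, and the paper names it among its altered genes. Of its windows of 50 bases, 114 of 727 (15.7%) also occur in the more abundant Clec4a2, so its separate level is uncertain. Cd209a, Cd209d, Cd209e and Clec4g had 0 counts in all libraries, and Cd209c, Clec4f and Clec4b2 had 8, 5 and 4 counts over the 8 libraries together.

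Of 46 further genes listed as C-type lectins, 21 were tested and 0 were called, while 6 were higher and 0 lower at an unadjusted p under 0.05 in edgeR's test, a level that 10.2% of all genes tested passed in either direction (DESeq2 and the likelihood ratio test called 3 each). Their median log2 fold change was 0.12. The most abundant were Clec7a (dectin-1, a receptor for fungal β-glucan), Colec12 (a scavenger receptor with a collagen domain) and Cd72 (an inhibitory co-receptor of B cells). Clec7a had 459 ± 66.1 CPM in the control and 617 ± 247 CPM in the IgG libraries (adjusted p = 0.486 in edgeR's test), and its changes of 0.64 and 0.73 in pairs 1 and 3 stood beside 0.01 and 0.00 in pairs 2 and 4. Cd72 had 365 ± 76.4 and 526 ± 54.6 CPM (adjusted p = 0.185 in edgeR's test), and Colec12 had 439 ± 29.2 and 432 ± 53.9 CPM (adjusted p = 0.938 in edgeR's test). Susd2 was among the 46 although it is not a C-type lectin.

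Of 22 genes that act in signalling by these receptors, all were tested and 0 were called, with 5 higher and 2 lower at an unadjusted p under 0.05 in edgeR's test, beside the 10.2% of all genes (DESeq2 called 2 and the likelihood ratio test 3). The adaptor gene Fcer1g had 582 ± 34.8 CPM in the control and 779 ± 85.8 CPM in the IgG libraries, a log2 fold change of 0.42 (SE 0.10) that was above 0 in 4 of 4 pairs (adjusted p = 0.209 in edgeR's test). The adaptor gene Tyrobp had 1006 ± 51.4 and 908 ± 298 CPM (adjusted p = 0.672 in edgeR's test), and the phosphatase gene Ptpn6 had 306 ± 29.0 and 355 ± 10.1 CPM (adjusted p = 0.487 in edgeR's test).

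Of 16 genes listed as targets of the Card9 route, 9 were tested and 1 was called. Il1b, which encodes the inflammatory cytokine interleukin-1β, rose from 29.9 ± 9.31 to 46.7 ± 12.3 CPM, with a log2 fold change of 0.66 (SE 0.10) that was above 0 in 4 of 4 pairs (adjusted p = 0.0466, edgeR's test with the block). Without the block its adjusted p was 0.692, and it was no longer called with libraries scaled by total counts or DESeq2 size factors, under the stricter filter, or without replicate 1, 2 or 3. Egr2, Tnfaip3 and Nfkbia, the most abundant of the list, had log2 fold changes of -0.39, -0.09 and 0.01, with adjusted p-values of 0.150, 0.695 and 0.983 in edgeR's test. The median over the 9 was -0.06.

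Markers of microglia and other brain macrophages were examined beside the lectins, and in these bulk libraries a change in the number of cells of a type and a change in the RNA per cell cannot be told apart. The summed level of 9 microglial markers was 1659 to 1905 CPM in the control libraries and 1819 to 2653 CPM in the IgG libraries. IgG replicates 1 and 3, of high mitochondrial share, had 2486 and 2653 CPM, whereas replicates 2 and 4 had 1819 and 1912 CPM, each above its own control (1659 and 1719 CPM). At an unadjusted p under 0.05, 6 of 8 tested microglial markers were higher and 0 lower (median log2 fold change 0.40), as were 4 and 0 of 8 tested markers of border-associated macrophages (median 0.21), in edgeR's test, beside the 10.2% of all genes. After adjustment, 1 of the 8 microglial markers, Aif1, a cytoskeletal protein of microglia and macrophages, was called (log2 fold change 0.69, SE 0.10, 4 of 4 pairs, adjusted p = 0.0331 in edgeR's test). The 10 markers of border-associated macrophages summed to 1182 to 1510 CPM and 1359 to 2174 CPM, with 2174 and 2126 CPM in IgG replicates 1 and 3 and 1627 and 1359 CPM in replicates 2 and 4, and 1 of 8 tested, Ms4a7, a membrane protein of these macrophages, was called (log2 fold change 0.61, SE 0.09, 4 of 4 pairs, adjusted p = 0.0381 in edgeR's test), while DESeq2 called 2 and the likelihood ratio test 3. Siglec1, a sialic acid receptor of macrophages, had a log2 fold change of 0.67 (SE 0.13, 4 of 4 pairs, adjusted p = 0.111 in edgeR's test). Their part in the level of the lectins was not tested. Without the block, Aif1 and Ms4a7 had adjusted p-values of 0.615 and 0.511.

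Markers of other cell types were examined in the same way. Oligodendrocyte lineage markers summed to 1005 to 1565 CPM in the control and 849 to 1481 CPM in the IgG libraries. Neuronal markers summed to 34.6 to 55.7 and 32.0 to 44.8 CPM. The medians of their log2 fold changes were -0.12 and -0.28, and both sums were lower with IgG in every pair. Astrocyte markers summed to 94.8 to 110 and 89.3 to 105 CPM, and fibroblast markers to 3.06 to 5.23 and 3.65 to 5.4 CPM. No gene of these lists was called in edgeR's test. Monocyte markers summed to 0.732 to 1.51 CPM in the control libraries and 0.478 to 0.933 CPM in the IgG libraries, with Plac8 and Chil3 at 0 counts. Dendritic cell markers summed to 2.28 to 4.65 and 2.77 to 4.22 CPM, mostly from Zbtb46, with Cd209a at 0 counts. Of this list, Xcr1 had 0.30 ± 0.118 CPM in the control and 0.597 ± 0.114 CPM in the IgG libraries (log2 fold change 1.00, 4 of 4 pairs, adjusted p = 0.421 in edgeR's test). Zbtb46 had 2.81 ± 0.778 and 2.47 ± 0.475 CPM (log2 fold change -0.17, higher in 2 of 4 pairs, adjusted p = 0.799 in edgeR's test). Itgae, which was not tested, had 0.49 ± 0.312 and 0.191 ± 0.14 CPM. Neutrophil markers summed to 0.498 to 1.55 and 1.03 to 2.00 CPM, with 4 of 5 at 0 counts, and lymphocyte markers to at most 0.456 CPM. Endothelial markers summed to 130 to 168 and 123 to 139 CPM, mostly from Flt1, which had 139 ± 20.5 and 122 ± 3.77 CPM. Its log2 fold change was -0.18 (SE 0.11, higher in 1 of 4 pairs, adjusted p = 0.588 in edgeR's test). Kdr had 0.05 (SE 0.17, 3 of 4 pairs), Pecam1 had 1.03 (SE 0.46, 3 of 4 pairs) and Cdh5 had 0.98 (SE 0.24, 4 of 4 pairs). Their adjusted p-values in edgeR's test were 0.924, 0.499 and 0.221, and the likelihood ratio test called 1 gene of this list. Cdh5 had 0.892 ± 0.485 and 1.76 ± 0.972 CPM, and Cldn5 had 0 counts. The part of these cell types in the level of the lectins was not tested.

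The genes most like the lectins over the 8 libraries were found by Pearson's r between their log2 CPM and the mean z-score of the tested members, among 15631 other genes. For the 2 Cd209 genes these were Arf2 (0.967), Pim2 (0.950), Gm43079 (0.949), Slc2a8 (0.949) and Sirpb1a (0.948). For the 7 Clec4 genes these were Ube2v1 (0.991), Cd302 (0.985), Susd2 (0.985), Ehd1 (0.985) and Dpysl2 (0.983). Cd302 encodes a C-type lectin, and its level was 51.3 CPM in the control and 62.3 CPM in the IgG libraries. All points share the libraries and their scaling, and the 5 genes of each family are a description of this ranking.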

How the data were processed

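Counts per gene were compared between 4 control and 4 IgG libraries of primary cultured mouse microglia. The authors discarded reads that held adapters, many undetermined bases or mostly low-quality bases, and aligned the others to mm10, and the submitters' processing notes name HISAT2 2.2.1, SAMtools 1.12, Picard 2.26.3, featureCounts and edgeR 3.36.0. The authors deposited raw whole-number counts for each Ensembl gene, without normalization or filter, and the strand setting and the handling of reads with several alignments are not given in the sources used here. Symbols, coordinates and exon lengths came from GENCODE M21 (GRCm38), which holds 55144 of the 55385 genes.

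Low counts were removed with filterByExpr (17537 genes kept), libraries were scaled with TMM, and genes were tested with edgeR 4.0.16 (quasi-likelihood) in R 4.3.3. The replicate number was a block because the labels give the libraries of one number the same date. The labels do not say which step the date marks. The deviations from the group means of 2 libraries with one number correlated at 0.41, 0.33, 0.26 and 0.32 over 15669 genes, and those of different numbers at -0.34 to 0.20. Nothing states whether cultures of a group came from separate litters, so p-values for IgG with the block measure only how the IgG-minus-control difference varied between these pairs. P-values were adjusted by Benjamini-Hochberg over all genes. Log2 CPM used a prior count of 2. No interval is given for counts, since reads without molecular identifiers are not independent molecules, and limits for a count of 0 (3 counts) cover counting error only.

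The members and lists were chosen with earlier results of these data known. Named are all members and their 8 relatives, in the other lists the genes called and the 3 of highest mean CPM, and for each family the 5 genes of highest r with a mean of at least 1 CPM. Beyond this rule, neighbouring genes and cell type markers were named after their values were seen. Of the listed microglial markers, 1 is not reported here. Promoter motifs and 50-base windows were examined with Biopython 1.88. The test was tried on simulated data, in which 200 of 17249 genes were changed by 1 on the log2 scale. The changed genes were drawn from those with a mean of at least 50 counts per library. The test recovered 93.5% of these, with 14 false calls. Cd209f, Cd209g and Clec4a4 lay below that mean, so this share does not apply to them. Alternatives were the fit without the block, the likelihood ratio test, DESeq2 1.42.0, other scalings, filters and prior counts, lowess correction for length and GC content, and omission of each replicate. Omission of replicates 1 and 3 together was chosen after seeing the data.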

Additional observations from a re-analysis of the deposited data

How the results depend on the processing

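The fold changes of the 9 tested members kept their sign in each of the alternatives in which they were tested, and each moved by less than the SD of its changes within pairs. Their median, 0.86, ranged from 0.76 (total counts) to 0.95 (without replicate 2). Scaling by total counts moved the median of all genes to -0.10, so that the shift of the members followed it. The count higher in all 4 pairs was 8 instead of 9 with total counts or DESeq2 size factors. Counts of calls depended more on the processing, and the causes were not tested.

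Of all genes, 69 were called with the replicate block, 0 without the replicate block, 327 by the likelihood ratio test, 231 by DESeq2, 37 with total counts, 376 without a filter, 210 with length and GC trends removed, 190 without replicates 1 and 3, and 0 (without replicate 2) to 182 (without replicate 4) when 1 replicate was left out. Of the members, which were selected on this contrast, 3 were called with the replicate block and 4 by DESeq2. The likelihood ratio test and the fit without a filter called 6. With trends removed and without replicates 1 and 3, 5 were called, and 0 (without replicate 2) to 3 when 1 replicate was left out. Without the block 0 members were called, and 7 had an unadjusted p under 0.05 in edgeR's test, beside 1230 of all 17537 genes. Of all genes in the lists of relatives, other C-type lectins, signalling genes and Card9 targets, 1 was called with the replicate block, 0 without it, with total counts, with DESeq2 size factors and with at least 10 counts in every library, 9 by the likelihood ratio test, 6 by DESeq2 and without a filter, 4 with trends removed, 5 without replicates 1 and 3, and 0 to 1 when 1 replicate was left out. For the date in the labels, 171 genes were called, 891 without a filter and 943 by the likelihood ratio test. When 1 replicate was left out, 6 (without replicate 2) to 183 (without replicate 3) were called, with 78 without replicate 4.

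Depth limits the Cd209 genes, with 0 counts of Cd209b in all libraries and 4 to 7 counts of Cd209g in the control libraries.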
